A study of Mus musculus with 6 samples.

Results

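The genes described here are the mouse colony-stimulating factors and their receptors: the ligand genes Csf1, Csf2 and Csf3, and the receptor genes Csf1r, Csf2ra, Csf2rb, Csf2rb2 and Csf3r. They were chosen by symbol, and all 8 were among the 24454 symbols of the count table. RNA was taken from cultured primary peritoneal macrophages, phagocytes of the abdominal cavity, of male wild-type C57BL6/J mice aged 6 to 8 weeks. Its polyA-enriched fraction was sequenced in 6 libraries, 2 per group. In the SGA360+LPS group the cells received 10 µM of the AHR (aryl hydrocarbon receptor) ligand SGA360 for 1 h and then 10 ng/ml of the bacterial endotoxin LPS for 4 h. The LPS group received 10 ng/ml LPS for 4 h, with no pretreatment named in the labels, and the vehicle group received vehicle for 5 h. Whether replicate libraries stem from different mice or cultures is not stated in the labels, and the p-values therefore reflect only the spread between these libraries, which may be technical.

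Colony-stimulating factors are secreted proteins that keep myeloid cells alive and drive their growth and differentiation. CSF1 (M-CSF, encoded by Csf1) signals through the receptor tyrosine kinase CSF1R, on which most tissue macrophages depend. CSF2 (GM-CSF, Csf2) binds an alpha chain specific to it, encoded by Csf2ra, which signals with the common beta chain encoded by Csf2rb, and mice have in addition a related beta chain for interleukin 3, encoded by Csf2rb2. CSF3 (G-CSF, Csf3) acts through CSF3R, best known as the receptor that supports neutrophil production. Macrophages exposed to endotoxin are a known source of GM-CSF and G-CSF.

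The libraries held between 7726973 and 9529817 counts. Vehicle replicate 1 stood apart: it held counts for 10001 symbols, where the other 5 libraries held them for 12282 to 12643, and 4.92% of its counts lay on the ribosomal precursor Rn45s, against 0.22% to 0.684% elsewhere. Its part in the comparisons against vehicle was not tested. Calls of the members that change without it are given, while sizes without it are given for some genes only. Of 10 macrophage marker genes, 9 had counts, with a summed level of 21236 and 24506 CPM (counts relative to the TMM-scaled library size) in SGA360+LPS, 22045 and 25685 CPM in LPS, and 20510 and 22328 CPM in vehicle libraries, while Itgam was listed at 0. Lyz2 alone had 18255 to 22238 CPM per library, so the sum mostly follows that gene. With LPS against vehicle, 3 of the 9 tested were higher (Adgre1, Cd14, Timd4) and 3 lower (Mertk, Fcgr1, Gata6) at an edgeR adjusted p under 0.05. Of all genes tested, 19.4% were higher and 17.0% lower. The lymphocyte, granulocyte, mast cell and dendritic cell lists each summed to at most 87.9 CPM in any library, with Ly6g, S100a9, Cd79b, Cd8a, Lck, Ms4a2, Siglecf, Epx and Clec9a at 0. Of these, only Ly6g and Epx have a single row, and a 0 in a symbol with several rows is uninformative. Fibroblast markers, led by the collagen genes, summed to 5207 and 4736 CPM in SGA360+LPS, 4725 and 4416 CPM in LPS, and 4680 and 5379 CPM in vehicle libraries.

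Transcript rows with the same symbol were summed, and this sets what can be said of 3 of the genes. Csf1r, Csf2, Csf2ra, Csf2rb and Csf3 each have a single row in the deposited table. Csf1 and Csf3r have 3 rows and Csf2rb2 has 2, and in each of these 3 genes only a single row held any count. In GENCODE M21 the counted row of Csf1 has 246 bases that no other row of the gene covers, that of Csf2rb2 has 1365 of 4740 bases, and that of Csf3r has 25 bases. Across the table, symbols with several rows held 1.87% of all counts. Levels of Csf1, Csf2rb2 and Csf3r are therefore uncertain and cannot be set against those of the other 5 genes.

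Csf1, the gene of M-CSF, lies on the minus strand at chr3:107741048-107760469 (mm10). It had 9 and 9 counts in SGA360+LPS, 10 and 10 counts in LPS, and 0 and 7 counts in vehicle libraries. Too few libraries reached the level that the filter on low counts asks for, so Csf1 was not tested. Csf3r, the gene of the G-CSF receptor (chr4:126024659-126044975, plus strand), had 1 and 1 counts in SGA360+LPS, 9 and 2 counts in LPS, and 0 and 0 counts in vehicle libraries, and it too was left untested. The transcript of Csf3r also shares 12.4% of its stretches of 50 bases with other annotated genes. Markers of neutrophils, the cells best known for this receptor, summed to 26.7 and 28.1 CPM in SGA360+LPS, 27.1 and 33.1 CPM in LPS, and 26.4 and 36.2 CPM in vehicle libraries. Of 4 tested, Camp was called higher with LPS against vehicle, where 19.4% of all genes tested were higher. Camp had 0 and 0 counts in vehicle libraries and passed the filter only through those with LPS, so nothing is read from its call. Of the 8 genes described here, the other 6 passed the filter.

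**Figure D1:**
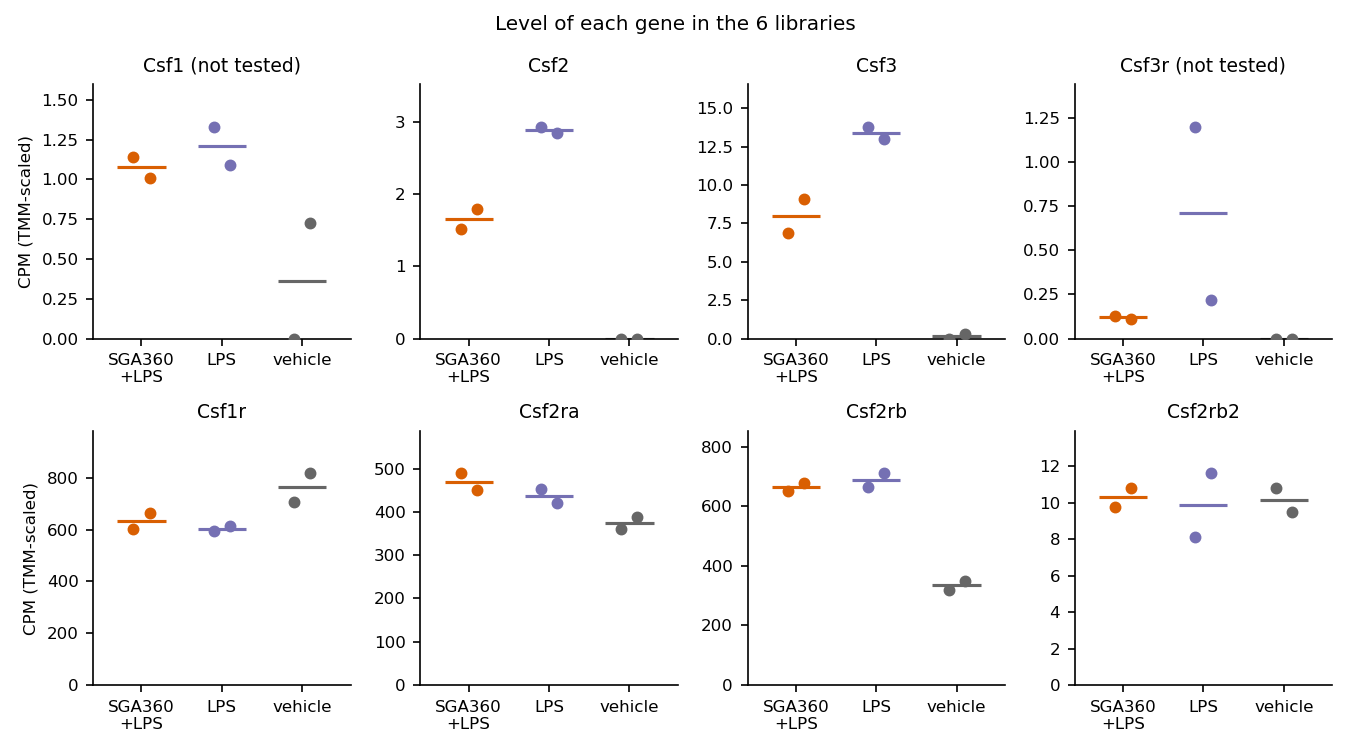
Level of each of the 8 genes in every library, in TMM-scaled CPM on linear axes that start at 0 and differ between panels. Points are single libraries, 2 per group, and horizontal lines are group means; Csf2 and Csf3 were at or near 0 in vehicle libraries, Csf2rb was higher in SGA360+LPS and LPS than in vehicle libraries, and Csf1r was lower.

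LPS alone, set against vehicle, addresses which of these genes the endotoxin changes in macrophages. Both tested ligand genes, Csf2 and Csf3, rose and were the largest changes among the tested members. Among the receptors, the common beta chain gene Csf2rb rose 2.06-fold, Csf2ra rose by 16.5%, Csf1r fell by 20.9%, and Csf2rb2 did not pass the test. That made 5 of the 6 tested members called, 4 of them higher and 1 lower, by edgeR's quasi-likelihood test at a Benjamini-Hochberg adjusted p under 0.05, where 36.4% of the 9389 genes tested were called, 19.4% higher and 17.0% lower. Of all genes called, 53.3% were higher, or 37.0% when libraries were scaled by total counts. Csf2 and Csf3 passed the filter only through the libraries with LPS, so nothing is read from the count of 5. With no filter on low counts, 5 of all 8 members were called, beside 3701 of all 14593 genes tested then. The median log2 fold change was 0.63 over the 6 members tested, the same with Csf2 set at its lower bound below, and -0.01 over all genes tested. Csf2 and Csf3 are part of the median of the members, so nothing is read from it either. In bulk RNA, fewer cells of a type and less RNA per cell cannot be told apart.

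Csf2 encodes GM-CSF and lies on the minus strand of chromosome 11 (chr11:54247270-54249899). It had 12 and 16 counts (1.52 and 1.79 CPM) in SGA360+LPS, 22 and 26 counts (2.93 and 2.84 CPM) in LPS, and 0 and 0 counts in vehicle libraries. No vehicle library held a read of the gene, and every library with LPS did. With 3 counts per library as the floor of a count of 0, which covers counting error only, Csf2 was at least 8.91-fold higher in LPS than in vehicle libraries and at least 5.12-fold higher in SGA360+LPS than in vehicle libraries. The adjusted p was 0.000841 for LPS against vehicle and 0.00259 for SGA360+LPS against vehicle by edgeR. Csf2 passed the filter only through the libraries with LPS, so nothing is read from these 2 calls. The fitted log2 fold changes, 7.65 ± 1.17 (SE) and 6.86 ± 1.25, depend on how the model treats counts of 0 and are not bounds. The antisense gene Gm12223 overlaps 96 exon bases of Csf2, and without a stated strand setting reads of the pair cannot be told apart there.

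Csf3 encodes G-CSF and lies further along the same chromosome, on the plus strand (chr11:98701313-98703629). It had 54 and 81 counts (6.86 and 9.07 CPM) in SGA360+LPS, 104 and 119 counts (13.8 and 13 CPM) in LPS, and 0 and 3 counts (0 and 0.312 CPM) in vehicle libraries. The vehicle libraries lay below all others. The log2 fold change was 6.26 ± 0.56 (SE; edgeR adjusted p = 1.14e-05) for LPS against vehicle. The pooled ratio was 82.8, with an exact 95% counting interval of 28 to 404, since the vehicle group held 3 counts in all. For SGA360+LPS the log2 fold change against vehicle was 5.51 ± 0.58 (adjusted p = 4.4e-05), with a pooled ratio of 49.7 (16.6 to 244). The size rests on the vehicle library that is kept. For LPS against vehicle it was 5.38 without vehicle replicate 1 and 9.83 without vehicle replicate 2, and for SGA360+LPS against vehicle 4.63 and 9.09. Csf3 passed the filter only through the libraries with LPS, so nothing is read from its calls against vehicle.

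The 3′ untranslated regions of the mRNAs of these cytokines are known for AU-rich elements, runs of the pentamer ATTTA through which the decay factor TTP (encoded by Zfp36) shortens the life of cytokine mRNAs. They are shown because Csf2 and Csf3 are the members with the largest changes, and the 30 bases of each region with the most pentamers are printed, from GENCODE M21 on the strand of the gene, with the pentamers in capitals.
Csf2, chr11:54247329-54247358, minus strand: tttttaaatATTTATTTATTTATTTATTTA
Csf3, chr11:98702984-98703013, plus strand: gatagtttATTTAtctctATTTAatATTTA
The Csf2 region of 317 bases held 9 pentamers, 5 of them in the window shown, and 4 copies of the longer form TTATTTATT. The Csf3 region of 669 bases held 6 pentamers, 3 of them in its window, and 0 copies of the longer form. The pentamers of Csf2 overlap in an unbroken run, while those of Csf3 are spaced apart. Among 20659 genes with a 3′ untranslated region of at least 50 bases, 8.72% had 9 or more pentamers, 17.2% had 6 or more, and 7.79% had the longer form. A window of 30 bases with 5 or more pentamers occurred in 0.276% of these genes, and one with 3 or more in 2.61%. Csf1 had 4 pentamers in its longer region and 0 in that of the row with counts, Csf1r had 2, and Csf2ra, Csf2rb, Csf2rb2 and Csf3r had 0. A match describes the letters and shows nothing of decay in these cells.

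Upstream of Csf2, 300 bases around the RefSeq start (250 before and 50 after it, build GRCm38.p6) are printed with motif matches in capitals, since the reads of this gene all came from libraries with LPS. The promoter of Csf2ra is set beside it as that of the receptor chain specific to its product.
Csf2, chr11:54249850-54250149, minus strand: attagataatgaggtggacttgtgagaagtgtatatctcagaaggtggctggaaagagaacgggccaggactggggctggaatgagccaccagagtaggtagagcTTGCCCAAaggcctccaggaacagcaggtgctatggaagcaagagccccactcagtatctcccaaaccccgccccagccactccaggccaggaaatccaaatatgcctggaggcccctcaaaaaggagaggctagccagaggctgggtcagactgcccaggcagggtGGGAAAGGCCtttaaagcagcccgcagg
Csf2ra, chr19:61228369-61228668, minus strand: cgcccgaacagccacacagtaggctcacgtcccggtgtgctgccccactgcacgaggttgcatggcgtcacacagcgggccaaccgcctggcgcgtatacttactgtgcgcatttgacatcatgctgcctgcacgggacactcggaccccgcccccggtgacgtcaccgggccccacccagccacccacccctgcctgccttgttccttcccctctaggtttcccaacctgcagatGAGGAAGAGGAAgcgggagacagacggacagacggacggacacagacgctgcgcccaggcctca
Both strands were searched for NF-kB (GGGAA, then 3 free bases and CC), AP-1 (TGANTCA), PU.1 (GAGGAA), C/EBP (TTGCNNAA) and CK-1 (G, then 2 free bases and ATTCCAC) patterns. Counted from the RefSeq start, the Csf2 window held the NF-kB pattern at position 23 and the C/EBP pattern at position -145. These patterns occur in 5.78% and 10.8% of the 32851 promoters of the table. The GENCODE start of Csf2 lies 232 bases further downstream, so all of the window precedes that start. The Csf2ra window held 2 neighbouring PU.1 patterns at positions -14 and -8, a pattern found in 28.3% of promoters, and RefSeq and GENCODE give this gene the same start. AP-1 and CK-1 patterns were in neither window, which says only that these letters were not found there.

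Csf2rb encodes the beta chain that GM-CSF, interleukin 3 and interleukin 5 receptors share (chr15:78325990-78351001, plus strand). It had 651 and 677 CPM in SGA360+LPS, 665 and 710 CPM in LPS, and 319 and 350 CPM in vehicle libraries. All libraries with LPS lay well above those without it, and the SGA360+LPS and LPS libraries overlapped. The log2 fold change was 1.04 ± 0.07 (SE; edgeR adjusted p = 1.56e-06) for LPS against vehicle and 0.99 ± 0.07 (adjusted p = 2.44e-06) for SGA360+LPS against vehicle. Without vehicle replicate 1 the first of these was 0.99, and without vehicle replicate 2 it was 1.13. Of the stretches of 50 bases in its transcript, 19% also occur in another gene, nearly all of them in Csf2rb2.

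Csf2rb2, the mouse beta chain for interleukin 3, lies 20268 bases from Csf2rb on the other strand (chr15:78282508-78305721). It had 77 and 96 counts (9.78 and 10.8 CPM) in SGA360+LPS, 61 and 106 counts (8.11 and 11.6 CPM) in LPS, and 97 and 91 counts (10.8 and 9.47 CPM) in vehicle libraries. The 3 groups overlapped. The log2 fold change for LPS against vehicle was -0.03 (95% interval -0.57 to 0.50; edgeR adjusted p = 0.924). Against vehicle, SGA360+LPS gave 0.02 (-0.51 to 0.55; adjusted p = 0.964), which turned to -0.09 with total-count scaling. A change of the size seen in Csf2rb lies outside both intervals, although the counted row covers only part of the gene and 19.4% of its stretches of 50 bases are shared with other genes.

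Csf2ra encodes the GM-CSF-specific alpha chain (chr19:61224402-61228418, minus strand). It had 489 and 451 CPM in SGA360+LPS, 453 and 420 CPM in LPS, and 360 and 389 CPM in vehicle libraries. Every library with LPS was above both vehicle libraries. The log2 fold change was 0.33 ± 0.07 (SE, edgeR adjusted p = 0.0068) for SGA360+LPS against vehicle and 0.22 ± 0.07 (adjusted p = 0.0404) for LPS against vehicle. Without vehicle replicate 1 the value for LPS was 0.18, and without vehicle replicate 2 it was 0.30. The call for LPS was lost when any library other than vehicle replicate 2 was left out, with adjusted p between 0.0503 and 0.203, with only the groups compared in the fit (0.23, adjusted p = 0.0544), and under scaling by total counts (0.09, adjusted p = 0.439). The call for SGA360+LPS was lost under scaling by total counts (0.21, adjusted p = 0.0839) and without SGA360+LPS replicate 1 (0.29, adjusted p = 0.071).

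Csf1r encodes the receptor of M-CSF and interleukin 34 and is a defining gene of the macrophage lineage (chr18:61105572-61131139, plus strand). It had 601 and 663 CPM in SGA360+LPS, 593 and 613 CPM in LPS, and 708 and 817 CPM in vehicle libraries. Both vehicle libraries lay above the rest. The log2 fold change was -0.34 ± 0.08 (SE, edgeR adjusted p = 0.00917) for LPS against vehicle and -0.27 ± 0.08 (adjusted p = 0.0289) for SGA360+LPS against vehicle. Without vehicle replicate 1 the first of these was -0.42, and without vehicle replicate 2 it was -0.21. The call for LPS was lost without LPS replicate 1 (-0.29, adjusted p = 0.0908) or LPS replicate 2 (-0.35, adjusted p = 0.0525). The call for SGA360+LPS was lost without either SGA360+LPS library, either LPS library or vehicle replicate 2, with log2 fold changes between -0.33 and -0.14 and adjusted p between 0.0636 and 0.316. Interleukin 34 (Il34) was listed at 0 in all libraries, in a symbol with several rows.

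Mesothelial marker genes summed to 346 and 365 CPM in SGA360+LPS, 352 and 354 CPM in LPS, and 517 and 491 CPM in vehicle libraries. Of 8 tested, Upk3b, Upk1b and Lrrn4 were lower with LPS and the other 5 did not pass, where 17.0% of all genes tested were lower, and of 5 fibroblast markers Col3a1 was lower. The part of these cells in the changes of the members was not tested.

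Pretreatment with SGA360 under LPS, set against LPS alone, addresses whether an AHR ligand alters the response of these genes to endotoxin. The labels name no pretreatment for the LPS group, so an effect of SGA360 and one of the pretreatment step cannot be told apart. The 6 tested members gave 0 calls by edgeR at an adjusted p under 0.05, in a comparison in which 0.0746% of all genes tested were called, all 7 of them lower. At an unadjusted p under 0.05 there were 276 genes, 1 of the members (Csf3) among them, and DESeq2 also called 0 members. The ligand genes had the largest fitted differences among the members, both downward. Csf2 averaged 1.66 ± 0.19 CPM in SGA360+LPS and 2.88 ± 0.0593 CPM in LPS libraries (SD, n = 2 each), and its log2 fold change was -0.79 (95% interval -2.08 to 0.50; unadjusted p = 0.2; edgeR adjusted p = 1). Csf3 averaged 7.97 ± 1.57 CPM in SGA360+LPS and 13.4 ± 0.582 CPM in LPS libraries (SD, n = 2 each), and its log2 fold change was -0.75 (-1.48 to -0.02; unadjusted p = 0.0455; edgeR adjusted p = 1). For both ligand genes the SGA360+LPS libraries lay below the LPS libraries without overlap, as they did for 19.6% of all genes tested, while for 19.9% they lay above. Over all alternatives, the adjusted p ran from 0.215 to 1 for Csf3 and from 0.54 to 1 for Csf2.

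The receptors gave narrower intervals for SGA360+LPS against LPS. The log2 fold change of Csf2ra was 0.11 (95% interval -0.06 to 0.27). That of Csf1r was 0.07 (-0.11 to 0.25), and that of Csf2rb was -0.05 (-0.21 to 0.11). That of Csf2rb2 was 0.05 (-0.48 to 0.59). All 4 had an adjusted p of 1 by edgeR, and their SGA360+LPS and LPS libraries overlapped. A p that misses the threshold does not show that the groups are alike; for Csf2rb, Csf2ra and Csf1r the intervals hold no change as large as that of Csf2rb with LPS.

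SGA360+LPS against vehicle called 5 of the 6 tested members, 4 higher and 1 lower, where 33.1% of all genes tested were called, 17.9% higher and 15.2% lower. Of all genes called, 54.0% were higher, or 38.1% when libraries were scaled by total counts. The members called were Csf2, Csf3, Csf2rb and Csf2ra, which were higher, and Csf1r, which was lower. Csf2 and Csf3 passed the filter only through the libraries with LPS, so nothing is read from the count of 5. With no filter on low counts it was 5 of all 8 members, beside 3408 of all 14593 genes tested then. The comparison shares its vehicle libraries with that of LPS against vehicle, so the 2 sets of values are not independent. Without vehicle replicate 1, the members called were the same 5 here, and for LPS against vehicle they were Csf1r, Csf2, Csf2rb and Csf3. Without vehicle replicate 2, Csf1 entered the test and was called higher in both, on the 0 counts of the remaining vehicle library (adjusted p = 0.00618 for SGA360+LPS and 0.00427 for LPS). Without vehicle replicate 1 it was not called (adjusted p = 0.545 for SGA360+LPS and 0.405 for LPS).

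**Figure D2:**
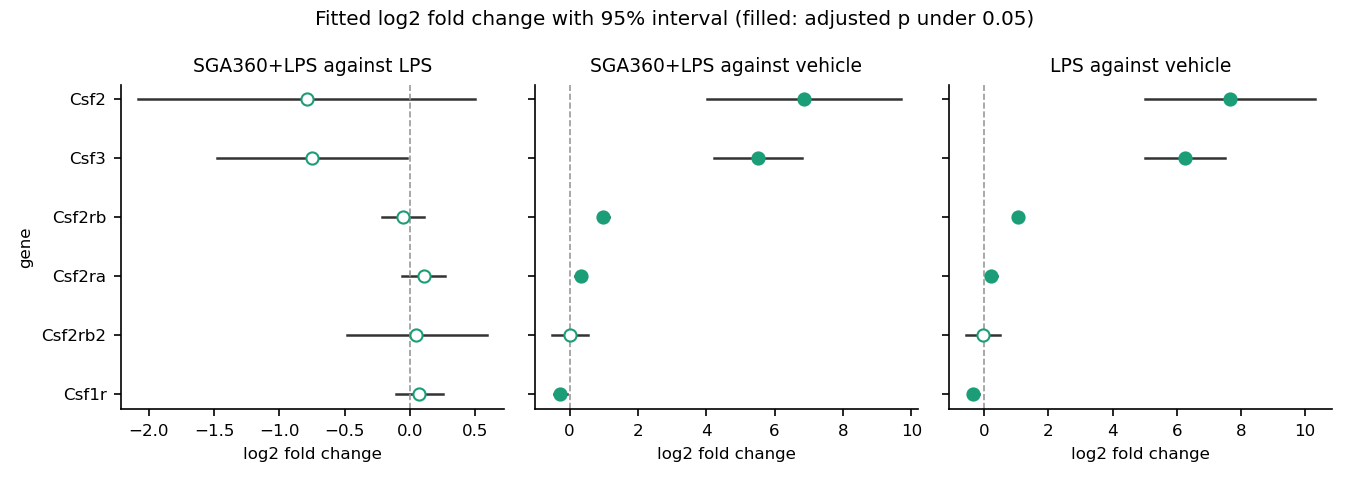
Fitted log2 fold change of the 6 tested genes in 3 comparisons, with 95% intervals; filled points have a Benjamini-Hochberg adjusted p under 0.05, the dashed line marks no change, and axes differ between panels. The intervals of Csf2 against vehicle come from a group at 0 counts and are not bounds; in SGA360+LPS against LPS no point is filled.

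Per kilobase of transcript, the 3 receptor genes with a single row were far more abundant than Csf2 and Csf3. Csf2ra had 252 ± 14.5 CPM per kb in SGA360+LPS, 235 ± 12.3 in LPS, and 201 ± 11.1 in vehicle libraries (SD, n = 2 each). Csf1r had 162 ± 11.4 CPM per kb in SGA360+LPS, 155 ± 3.62 in LPS, and 196 ± 19.8 in vehicle libraries. Csf2rb had 139 ± 3.91 CPM per kb in SGA360+LPS, 144 ± 6.71 in LPS, and 69.9 ± 4.55 in vehicle libraries. In vehicle libraries Csf2ra and Csf1r overlapped and Csf2rb lay below both, while with LPS, with or without SGA360, Csf2rb lay nearer to Csf1r, and both lay below Csf2ra. The order of Csf2rb and Csf1r with LPS is uncertain, since the full length of Csf2rb was used although 19% of its stretches of 50 bases are shared. Csf3 followed with 5.82 ± 1.15 CPM per kb in SGA360+LPS, 9.81 ± 0.426 in LPS, and 0.114 ± 0.161 in vehicle libraries. Csf2 had 1.6 ± 0.183 CPM per kb in SGA360+LPS, 2.78 ± 0.0572 in LPS, and 0 in vehicle libraries. Csf2rb2 stood at 7.16 and 7.88 CPM per kb in SGA360+LPS, 5.94 and 8.49 in LPS, and 7.94 and 6.94 in vehicle libraries when only the 1365 bases that GENCODE M21 gives to its counted row alone are used as length. Its rows are 4424 and 4753 bases long in the deposited counts, against 3375 and 4740 bases in GENCODE M21. The specific length is therefore uncertain, and this level cannot be ranked beside those of the other genes.

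Ratios within a library do not depend on how libraries are scaled. The ratio of beta to alpha chain, Csf2rb over Csf2ra per kb, was 0.519 and 0.585 in SGA360+LPS, 0.572 and 0.658 in LPS, and 0.345 and 0.35 in vehicle libraries. Csf2rb over Csf1r was 0.884 and 0.833 in SGA360+LPS, 0.915 and 0.945 in LPS, and 0.367 and 0.349 in vehicle libraries. Csf1r over Csf2ra was 0.587 and 0.703 in SGA360+LPS, 0.625 and 0.696 in LPS, and 0.939 and 1 in vehicle libraries. In these 3 ratios the libraries with LPS were apart from the vehicle libraries, and the SGA360+LPS and LPS libraries overlapped in Csf2rb over Csf2ra and in Csf1r over Csf2ra. In Csf2rb over Csf1r the SGA360+LPS libraries lay below the LPS libraries without overlap. These ratios were not tested; an exact 2-sided permutation test of a single ratio cannot go below p = 0.333 with 2 libraries per group. Csf3 over Csf2 was 3.41 and 3.84 in SGA360+LPS and 3.58 and 3.47 in LPS libraries, which overlapped.

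**Figure D3:**
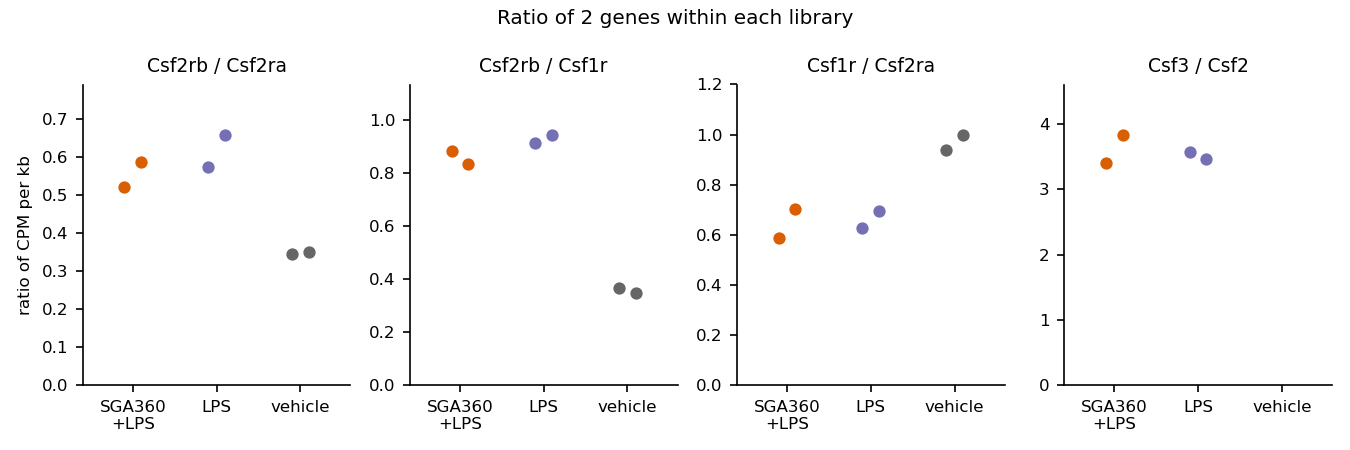
Ratio of the levels per kilobase of gene pairs within each library, on linear axes that start at 0; each point is a library, and vehicle has no value for Csf3 over Csf2 because Csf2 had 0 counts there. Csf2rb over Csf2ra and over Csf1r is higher with LPS, with or without SGA360, than in vehicle libraries, and Csf1r over Csf2ra is lower.

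The genes whose pattern over the 6 libraries was most like each member were found by the root mean square difference of centred log2(CPM + 1) among 8418 genes. For Csf3 they were Tmem132e (0.176), Tnfsf9 (0.214) and the chemokine gene Ccl7 (0.244), where the median over all candidates was 1.60. For Csf2 they were Ier3 (0.116), Ell2 (0.119) and the adenosine receptor gene Adora2b (0.145), with a median of 0.84. With 0 counts in vehicle libraries and few with LPS, the place of Csf2 on this scale is set largely by the added 1 CPM, so these genes need not share its fold change. Csf3, at 0 and 0.312 CPM in vehicle libraries, is also affected, and the genes most like it need not share its fold change either. For Csf2rb they were the lysosomal phosphatase gene Acp2 (0.031), Pvr (0.036) and Tshz1 (0.037), with a median of 0.51. For Csf1r they were Man2b1, a lysosomal mannosidase gene (0.024), Unc13d (0.027) and Coq9 (0.027), and for Csf2ra Sf3b4 (0.021), Fignl2 (0.028) and Cxxc1 (0.033), each with a median of 0.26. For Csf2rb2 they included Ttc37 (0.049) and Zfp874b (0.052), also with a median of 0.26. Such likeness rests on 6 libraries that share their depth and groups.

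Of 7 shared ligands, chains and adaptors 3 were tested, and the call was lower for Tyrobp alone, with a median log2 fold change of 0.02. For this and the following lists, 19.4% of all genes tested were higher and 17.0% lower with LPS against vehicle, with a median of -0.01. Tyrobp, the adaptor DAP12 that couples to several macrophage receptors, had 1011 CPM in SGA360+LPS, 928 CPM in LPS, and 1132 CPM in vehicle libraries on average (log2 fold change -0.29 for LPS against vehicle, edgeR adjusted p = 0.0116), and its call was lost without vehicle replicate 1 (-0.19, adjusted p = 0.0559) or either LPS library (-0.29 and -0.24, adjusted p = 0.0526 and 0.105). Il3ra, the alpha chain that pairs with the beta chains for interleukin 3, averaged 109 CPM in SGA360+LPS, 103 CPM in LPS, and 102 CPM in vehicle libraries (0.02 for LPS against vehicle, adjusted p = 0.886, and -0.11 with total-count scaling). Il3 and Il5 had 0 counts in every library. Il3ra was chosen after its values were seen.

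Of 29 genes of receptor signalling 14 were tested; 4 rose and 4 fell with LPS against vehicle, with a median log2 fold change of 0.21, beside 19.4% higher, 17.0% lower and a median of -0.01 over all genes tested. Those that rose were, with their log2 fold change ± SE and all at an edgeR adjusted p under 0.05, Pik3r5 (1.35 ± 0.09), a regulatory subunit of PI3 kinase gamma, the Src family kinase gene Fgr (1.06 ± 0.14), the ubiquitin ligase gene Cbl (0.51 ± 0.10) and Jak1 (0.42 ± 0.07). Pik3r5 had 734 and 753 CPM in SGA360+LPS, 706 and 693 CPM in LPS, and 249 and 301 CPM in vehicle libraries. The log2 fold change of Fgr was 0.84 without vehicle replicate 1 and 1.37 without vehicle replicate 2. Cblb, a relative of Cbl (-0.72 ± 0.11), and the adaptor gene Dok2 (-0.54 ± 0.10) fell, with an adjusted p of 0.0513 for Dok2 without LPS replicate 2. Jak2, Stat3 and Lyn, central to these pathways, have several transcript rows and were at or near 0 in every library, so nothing can be said of them.

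Of 16 feedback and target genes of these receptors 11 were tested; 5 rose and 1 fell with LPS against vehicle, with a median log2 fold change of 0.69. Socs3, the feedback inhibitor of G-CSF and interleukin 6 receptor signalling, had 590 and 505 CPM in SGA360+LPS, 718 and 664 CPM in LPS, and 85.3 and 97.1 CPM in vehicle libraries. Its log2 fold change was 2.92 ± 0.10 for LPS against vehicle (edgeR adjusted p = 1.02e-08) and -0.34 ± 0.09 for SGA360+LPS against LPS (adjusted p = 1). The survival kinase genes Pim1 (1.87 ± 0.10) and Pim3 (0.69 ± 0.12), the cyclin gene Ccnd2 (1.11 ± 0.11) and Id2 (0.80 ± 0.07) also rose. The repressor gene Bcl6 fell (-0.59 ± 0.13), and its call was lost without LPS replicate 1 (-0.42, adjusted p = 0.0928). These genes also answer to other cytokines and to LPS itself.

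Of 20 transcription factors linked to the genes of the factors or receptors 15 were tested; 8 rose and 3 fell with LPS against vehicle, with a median log2 fold change of 0.95, beside 19.4% higher, 17.0% lower and a median of -0.01 over all genes tested. Nfkb1 (2.67 ± 0.10) and Rel (1.68 ± 0.13), which encode NF-kB subunits, rose, as did Ets2 (2.73 ± 0.10), Cebpd (1.81 ± 0.12) and Tfec (2.67 ± 0.15), a macrophage relative of Mitf. Spi1, which encodes PU.1, the factor on which macrophage expression of Csf1r depends, had 764 and 751 CPM in SGA360+LPS, 782 and 710 CPM in LPS, and 299 and 354 CPM in vehicle libraries (1.19 ± 0.09, edgeR adjusted p = 2.67e-06 for LPS against vehicle). Spi1 was higher in the groups in which Csf1r was lower; it was chosen after its values were seen. Fos, an AP-1 subunit gene, fell (-1.89 ± 0.24).

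Of 9 regulators of AU-rich and stem-loop mRNA decay 7 were tested; 3 rose and 2 fell with LPS against vehicle, with a median log2 fold change of 0.11. Zc3h12a, which encodes the endonuclease Regnase-1, had 174 and 151 CPM in SGA360+LPS, 201 and 182 CPM in LPS, and 31.7 and 38.5 CPM in vehicle libraries (2.45 ± 0.12). Zfp36, which encodes TTP, had 162 and 156 CPM in SGA360+LPS, 188 and 181 CPM in LPS, and 110 and 123 CPM in vehicle libraries (0.67 ± 0.08). Elavl1, which encodes the stabilising protein HuR, rose (0.34 ± 0.08), and the TTP relatives Zfp36l1 (-0.53 ± 0.09) and Zfp36l2 (-0.22 ± 0.07) fell. The calls of Elavl1 and Zfp36l2 were lost under several alternatives, with adjusted p up to 0.0572 for Elavl1 and 0.229 for Zfp36l2.

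Of 20 other cytokine receptor genes 14 were tested; 8 rose and 4 fell with LPS against vehicle, with a median log2 fold change of 0.46. The interferon receptor genes Ifnar2 (1.30 ± 0.10) and Ifnar1 (0.81 ± 0.08) rose, as did Il13ra1 (0.73 ± 0.13) and Il27ra (0.81 ± 0.20), the last with an adjusted p of 0.0827 without LPS replicate 1. Il21r (-2.32 ± 0.17) and Il7r (-1.38 ± 0.09) fell. Beside them the rise of Csf2rb and the fall of Csf1r were 2 of many receptor changes in both directions. Of 4 class III receptor tyrosine kinases, the family of Csf1r, only 1 was tested and it was not called.

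With SGA360+LPS against LPS, 0 genes of these lists were called by edgeR, against 0.0746% of all genes tested, and the list medians lay between -0.09 and 0.07. Of the 65 list genes tested, 6 had an unadjusted p under 0.05 by edgeR, beside 276 of all 9389 genes tested. The lists were chosen with earlier results of these data known, so nothing is read from that count. DESeq2 called 0 of the list genes. Against vehicle, SGA360+LPS gave, in the signalling list, 4 higher and 4 lower, the feedback list 5 higher and 0 lower, the transcription factors 8 and 3, the decay regulators 3 and 1, and the other receptors 8 and 4, where 17.9% of all genes tested were higher and 15.2% lower.

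**Figure D4:**
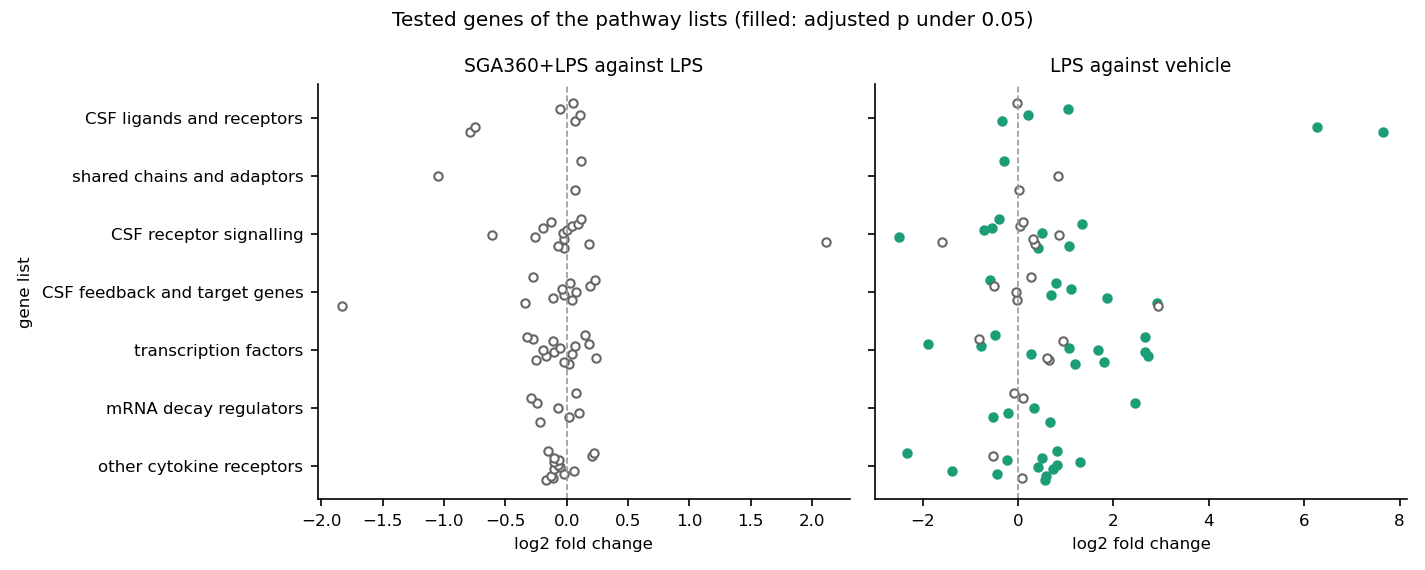
Fitted log2 fold change of every tested gene of the gene lists, in SGA360+LPS against LPS on the left and LPS against vehicle on the right, on axes of different range; filled points have an adjusted p under 0.05. No point is filled for SGA360+LPS against LPS, while with LPS against vehicle the lists hold genes that rose and genes that fell.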

How the data were processed

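A single table of read counts was deposited; the authors made these whole-number counts on mm10 with HTSeq 0.5.4p3 and TopHat2 2.0.13, per the submitters' processing notes. It has 34751 transcript rows, and each row gives a gene symbol, a RefSeq accession and coordinates. Not given in the sources used here are the strand setting, the version of the annotation and the handling of reads common to several transcripts. Rows were summed per symbol. Of 5639 symbols with several rows, 51% were at 0 in all libraries, against 37.1% of symbols with a single row, so such symbols may hold isoform-specific reads alone.

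After filterByExpr (minimum count 10) and TMM scaling, genes were tested in a single edgeR 4.0.16 quasi-likelihood model (glmQLFit, glmQLFTest; R 4.3.3) of the 3 groups over all 6 libraries, with 3 residual degrees of freedom. The p-values were adjusted over all 9389 symbols tested, with a threshold of 0.05. Standard errors are the size of the log2 fold change over the root of F. CPM are relative to library sizes after TMM, and CPM per kb use the length of the row with the most counts. Floors are 3 counts per library; they and counting intervals (95%) cover counting error only, since reads that carry no molecular identifier cannot be taken as independent molecules. Total counts ran from 7726973 to 9529817 per library. Replicates were compared by a chi-square of their counts per gene, and no pair agreed within sampling noise. The scripts were tested on simulated counts.

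Groups came from the labels. DESeq2 1.42.0, other scalings and filters, a replicate block and leaving out each library were run as alternatives. Loci, untranslated regions and shared 50-base stretches came from GENCODE M21, of the same build as the table, and promoters from RefSeq, whose table held 5 of the 8 members. Genes named beside the members passed the threshold with a mean of at least 5 CPM, up to 6 per list by size of change; the genes most like a member had a single row and a mean of at least 1 CPM. Spi1, Il3ra, the marker genes and the genes listed at 0 fall outside that rule. The members, lists and motifs were chosen with earlier results of these data known. Some genes that these rules name are left out of the text.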

Additional observations from a re-analysis of the deposited data

How the results depend on the processing

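Over all alternatives, the log2 fold changes of the tested members kept their direction and side of the threshold in 72 of 83 cases for LPS against vehicle, 79 of 83 for SGA360+LPS against LPS and 73 of 83 for SGA360+LPS against vehicle; for the other named genes this held in 430 of 448. The calls lost were those of Csf2ra and Csf1r, given above, and of Tyrobp, Dok2, Bcl6, Elavl1, Zfp36l2 and Il27ra. The sign turned in 6 uncalled values. In LPS against vehicle, Csf2rb2 ran from -0.31 to 0.21 as each library was left out (0.21 without LPS replicate 1, 0.09 without vehicle replicate 1), and Il3ra from -0.08 (without vehicle replicate 1) to 0.17, with -0.11 under total-count scaling. In SGA360+LPS against LPS, leaving out each library gave -0.01 (without SGA360+LPS replicate 2) to 0.14 for Csf1r, -0.18 (without LPS replicate 1) to 0.34 for Csf2rb2, which was also -0.02 without SGA360+LPS replicate 2, and -0.10 to 0.00 (without LPS replicate 2) for Csf2rb. In SGA360+LPS against vehicle, Csf2rb2 ran from -0.06 (without vehicle replicate 2; -0.04 without SGA360+LPS replicate 2) to 0.13, with -0.09 under total-count scaling. The cause was not tested. Total-count scaling shifted the median of all genes by -0.129 for LPS against vehicle, 0.016 for SGA360+LPS against LPS and -0.113 for SGA360+LPS against vehicle, and the higher share of calls was then 37.0% against 53.3% for LPS against vehicle and 38.1% against 54.0% for SGA360+LPS against vehicle. Leaving out each library gave 2091 to 5494 calls and 3 to 6 members called for LPS against vehicle (2217 without LPS replicate 1, 2091 without LPS replicate 2, 5494 without vehicle replicate 2), 0 to 16 calls and 0 members for SGA360+LPS against LPS (15 and 16 without vehicle replicate 1 or 2, 3 without LPS replicate 1, 0 without any other library), and 1831 to 5315 calls and 3 to 5 members for SGA360+LPS against vehicle (1831 and 1872 without SGA360+LPS replicate 1 or 2, 5315 without vehicle replicate 2). A lone library is assumed there to vary like the other groups. In SGA360+LPS against LPS there were 17 calls with no filter, which tests more genes, and 12 with only the groups compared, with 0 members in both. Csf2 gave no value with a filter of 5 CPM. In the list counts, chosen after seeing the data, leaving out vehicle replicate 1 gave, for LPS against vehicle, 0 calls in place of 1 among shared chains (Tyrobp), 7 in place of 6 among feedback genes, 12 in place of 11 among transcription factors and the same counts in the other lists. Libraries with the same number deviated together to some extent for SGA360+LPS and LPS (r = 0.198). They hardly did so for LPS and vehicle (r = -0.004) or SGA360+LPS and vehicle (0.014). Whether libraries with the same number were handled together is not stated in the labels and was not tested. With the replicate block 3434, 5 and 3136 genes and 5, 0 and 5 members were called in LPS against vehicle, SGA360+LPS against LPS and SGA360+LPS against vehicle. Depth limits Csf1, Csf2, Csf3r and, in vehicle, Csf3, which rest on few reads.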
